A study of Mus musculus with 64 samples.

Results

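The genes described here encode adhesion molecules with which neurons hold on to each other and to glia, measured in 64 DCX-dsRed+ cells of the mouse dentate gyrus, each sequenced by itself. The set is the 42 genes, of 23313 in the deposited tables, whose symbols belong to 10 families: neurexins, neuroligins, LRRTMs, FLRTs, SLITRKs, contactins, contactin-associated proteins, the L1 family, NCAMs and CADMs. They were chosen by name and not by level. The cells came from Dcx-dsRed transgenic mice aged 6 to 7 weeks, in which a red fluorescent protein marks cells that use the promoter of doublecortin, a microtubule-binding protein of newborn neurons. After fluorescence sorting each cell was captured on a microfluidic chip, and its polyadenylated RNA was sequenced. Every cell carries the reporter, and the labels name neither an unmarked control nor a treatment, a stage or an animal. The 64 cells are therefore 1 biological sample, and no test was made between kinds of cell: folds, ranges and counts below describe these cells.

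The labels call every cell an immature neuron, and the marker genes of most cells went against this. Clustering on genes other than the 42 gave 20 granule-lineage-like cells (31.3%), 33 oligodendrocyte-like cells (51.6%) and 11 stem cell or astrocyte-like cells (17.2%). Cnp, an enzyme of myelin-forming cells, had a median of 1.77 TPM in granule-lineage-like cells, 6715 TPM in oligodendrocyte-like cells and 12.4 TPM in stem cell or astrocyte-like cells. Neuronal markers were not limited to the first group. Prox1, a transcription factor of granule neurons, was detected in 17 of 20, 21 of 33 and 3 of 11 cells in the same order of groups. Snap25, a vesicle fusion protein of neurons, was found in each of the 64 cells (medians 4648, 1532 and 405 TPM). Pan-neuronal markers did not all fall in this order. Syt1 did (medians 184, 36.8 and 1.92 TPM). Map2 (27.1, 17.3 and 35.8 TPM), Elavl3 (11.3, 34.15 and 0 TPM) and Elavl4 (0.345, 0 and 8.3 TPM) did not. Stem cell or astrocyte markers were not limited to the last group either. Aldoc was detected in 20 of 20, 32 of 33 and 11 of 11 cells (medians 547, 697 and 9800 TPM). Gjb6 was more limited, in 6 of 20, 13 of 33 and 9 of 11 cells. By marker scores, granule-lineage-like cells 3, 9, 45 and 48 and oligodendrocyte-like cells 66 and 73 were stem cell or astrocyte-like. Oligodendrocyte-like cell 53 scored highest for the pan-neuronal markers, which stand for the granule-lineage-like group in these scores. A second programme means here that the mean log2 level of another group's markers in a library reached the 25th percentile of that group's own cells. For the granule-lineage-like group these markers were the pan-neuronal ones, so the rule does not tell granule neurons from other neurons. Such libraries numbered 3 of the 20 granule-lineage-like cells, 15 of the 33 oligodendrocyte-like cells and 0 of the 11 stem cell or astrocyte-like cells. Their part in the results was not tested beyond leaving them out. Depth, estimated from the value of 1 read, was 442539 to 3807135 reads per cell (median 999254), in a deeper class of 21 libraries and a shallower class of 43. The deeper class held 7 granule-lineage-like cells, 13 oligodendrocyte-like cells and 1 stem cell or astrocyte-like cell. Depth followed the cell numbers: libraries numbered 1 to 24 were deeper except cell 20, and those numbered 31 or higher were shallower. The labels do not say what this order stands for, and its part in the results was not tested. TPM is a length-corrected share of all transcripts in the cell, and a gene is called detected at 1 TPM or more. A single read of a member was worth 0.0468 to 5.17 TPM, so a level near 1 TPM can rest on 1 or a few reads, and single cells can miss a transcript that they hold.

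By way of background, neurexins are presynaptic receptors that bind several kinds of postsynaptic partner across the cleft, among them neuroligins and LRRTMs, and so organise synapses. FLRTs and SLITRKs are further leucine-rich repeat proteins that bind latrophilins (FLRTs) and receptor tyrosine phosphatases (SLITRKs). Contactins are lipid-anchored immunoglobulin proteins that pair with contactin-associated proteins, and with the L1-family protein neurofascin they build the junction between axon and myelin beside the node of Ranvier. NCAMs and CADMs bind copies of themselves or of their relatives on the neighbouring cell, and NCAM1 with polysialic acid is a classical mark of young dentate granule neurons.

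As a group the adhesion genes were present in each of the 64 cells, at 9 or more genes per cell. A granule-lineage-like cell had between 15 and 27 of the 42 genes detected (median 21), an oligodendrocyte-like cell between 9 and 29 (median 17) and a stem cell or astrocyte-like cell between 11 and 25 (median 18). The ranges overlap. The number of all genes detected was also highest in granule-lineage-like cells, with medians of 5502, 5227 and 4473 genes in that order, and its part in the difference was not tested. Summed over the 42 genes, the level was 1691 to 5897 TPM in granule-lineage-like cells (median 3308), 576 to 6067 TPM in oligodendrocyte-like cells (median 2234) and 802 to 3893 TPM in stem cell or astrocyte-like cells (median 2293). The gene with the largest share of the summed mean level was Lrrtm4 in granule-lineage-like cells, at 29.2%, and Cntn1 in oligodendrocyte-like cells, at 26.7%.

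**Figure D1:**
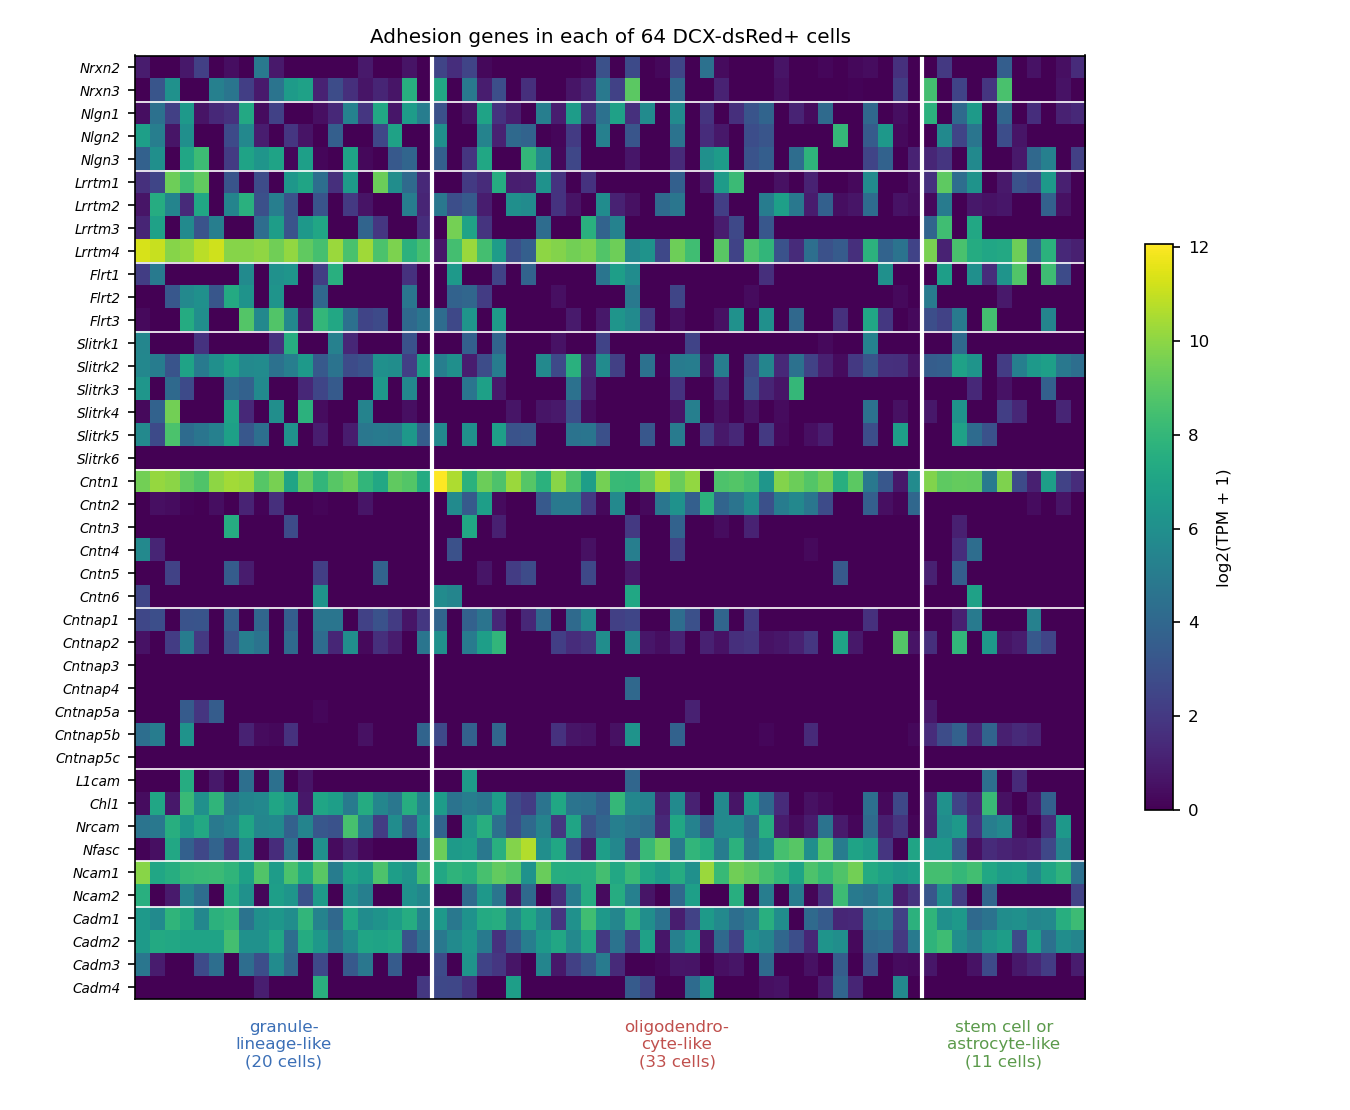
Level of 41 adhesion genes (rows, grouped by family) in each of the 64 cells (columns), as log2(TPM + 1). Granule-lineage-like cells stand on the left, oligodendrocyte-like cells in the middle and stem cell or astrocyte-like cells on the right, each ordered by the summed level of the 42 genes. Cntn1, Lrrtm4 and Ncam1 run through nearly all cells, while most other rows are broken by cells at 0.

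Of the 42 genes, 39 were above 0 in at least 1 cell, where 15022 of all 23313 genes were. Cntnap3, Cntnap5c and Slitrk6 were listed at 0 in all 64 cells, which allows detection in up to 4.69% of such cells when the limit for a count of 0 is taken as 3 cells of 64. Ncam1 was at 1 TPM or more in each of the 64 cells. In at least 50% of the granule-lineage-like cells 23 of the 42 genes were detected, where 21.8% of all genes in the tables were. The same count was 14 of 42 in oligodendrocyte-like cells, against 19.5% of all genes, and 15 of 42 in stem cell or astrocyte-like cells, against 14.7% of all genes. Among the genes that passed this mark in each of the 3 groups were Cadm1, Cadm2, Chl1, Cntn1, Lrrtm4, Ncam1, Nfasc, Nlgn1, Nrcam and Slitrk2. At the other end, 10 of the 42 were detected in no more than 10 cells, among them Cntn3, Cntn4, Cntn5, Cntn6 and L1cam. The matching share of all genes was not worked out.

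Of the neurexins, Nrxn2 and Nrxn3 are described. Nrxn3 was detected in 13 of 20 granule-lineage-like cells (median 2.91 TPM, highest 188), in 11 of 33 oligodendrocyte-like cells (highest 520 TPM) and in 4 of the 11 stem cell or astrocyte-like cells (highest 380 TPM). A single oligodendrocyte-like cell with a second programme held 68.4% of the Nrxn3 of its group. Nrxn2 stayed low, at 27.9 TPM or less, and was detected in 2 of 20, 8 of 33 and 3 of 11 cells in the same order.

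Of the postsynaptic partners of neurexin, Lrrtm4, which binds neurexins and heparan sulphate proteoglycans, was among the most abundant genes of the granule-lineage-like cells, where its mean ranked 120 among the 13315 genes above 0. Its level there was 216 to 2582 TPM (median 933). Oligodendrocyte-like cells had 0 to 1218 TPM of Lrrtm4 (median 72.4) and stem cell or astrocyte-like cells 1.1 to 781 TPM (median 155). The log2 ratio of the means was 1.91 for granule-lineage-like over oligodendrocyte-like cells, just short of 4-fold, and 2.20 over stem cell or astrocyte-like cells (1.66 with cells assigned by marker scores). Each of the 20 granule-lineage-like cells was above the medians of both other groups, while the highest cells of those groups lay within its range.

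The other LRRTMs were patchier. Lrrtm2 was detected in 13 of 20 granule-lineage-like cells (median 4.86 TPM, highest 201), in 16 of 33 oligodendrocyte-like cells (highest 112 TPM) and in 2 of the 11 stem cell or astrocyte-like cells (highest 31.8 TPM). Its log2 ratio for granule-lineage-like over stem cell or astrocyte-like cells was 2.79, and 2.00 to 3.47 under the alternatives tried. Lrrtm1 was detected in 16 of 20 granule-lineage-like cells (median 12.3 TPM, highest 678), in 12 of 33 oligodendrocyte-like cells (highest 295 TPM) and in 8 of the 11 stem cell or astrocyte-like cells (highest 526 TPM). For Lrrtm1 the log2 ratio of granule-lineage-like over oligodendrocyte-like cells was 2.55, and 1.48 without libraries with a second programme. Lrrtm3 was detected in 13 of 20, 9 of 33 and 3 of 11 cells, and its highest value, 744 TPM, was in an oligodendrocyte-like cell.

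All 3 neuroligins were present, at lower levels than Lrrtm4. Nlgn1, the neuroligin of excitatory synapses, was detected in 13 of 20 granule-lineage-like cells (median 2.52 TPM, highest 156), 19 of 33 oligodendrocyte-like cells (median 2.09 TPM, highest 127) and 7 of the 11 stem cell or astrocyte-like cells (median 1.59 TPM, highest 216). The 3 medians lie close together and the ranges overlap. Nlgn2, the neuroligin of inhibitory synapses, was detected in 9 of 20, 15 of 33 and 4 of 11 cells, with a highest value of 257 TPM. Nlgn3, found at both kinds of synapse and in glia, had a median of 10.8 TPM in granule-lineage-like cells (highest 309), 0.66 TPM in oligodendrocyte-like cells (highest 254) and 1.45 TPM in stem cell or astrocyte-like cells (highest 52.3). At least 1 neuroligin was detected in 19 of 20 granule-lineage-like cells, 26 of 33 oligodendrocyte-like cells and 9 of the 11 stem cell or astrocyte-like cells.

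The FLRTs, which bind latrophilins and guide migrating neurons, divided between the groups. Flrt3 was detected in 13 of 20 granule-lineage-like cells (median 18.6 TPM, highest 458), against 13 of 33 oligodendrocyte-like cells (median 0.42 TPM, highest 139) and 5 of the 11 stem cell or astrocyte-like cells (highest 354 TPM). Its log2 ratio for granule-lineage-like over oligodendrocyte-like cells was 2.11, and 0.98 in the shallower libraries. Flrt2 was detected in 9 of 20 granule-lineage-like cells (highest 165 TPM), 5 of 33 oligodendrocyte-like cells (highest 28.4 TPM) and 1 of the 11 stem cell or astrocyte-like cells (31.6 TPM). Flrt1 went the other way and was the 1 member with a mean past 4-fold higher in stem cell or astrocyte-like cells than in both other groups. It was detected in 8 of 20 granule-lineage-like cells (mean 21.7 TPM), 8 of 33 oligodendrocyte-like cells (mean 11.0 TPM) and 7 of the 11 stem cell or astrocyte-like cells (median 5.83 TPM, mean 91.4, highest 437). The log2 ratio of oligodendrocyte-like over stem cell or astrocyte-like cells was -2.94, and -3.80 to -2.51 under the alternatives tried. That of granule-lineage-like over stem cell or astrocyte-like cells was -2.02, but -1.80 without libraries with a second programme and -1.10 by marker scores.

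The 5 detected SLITRKs, which bind receptor tyrosine phosphatases on the facing axon, each had a higher mean in granule-lineage-like cells than in both other groups, by log2 ratios from 0.06 to 4.29, although Slitrk3 was lower than in oligodendrocyte-like cells when cells were assigned by marker scores (log2 ratio -0.31) and in shallower libraries (-0.05). Slitrk2 was detected in 54 of the 64 cells, at 3.66 to 125 TPM in granule-lineage-like cells (median 40.8), 0 to 199 TPM in oligodendrocyte-like cells (median 4.16) and 0 to 118 TPM in stem cell or astrocyte-like cells (median 27.3). Slitrk5 was detected in 15 of 20 granule-lineage-like cells (median 22.3 TPM, highest 404), 15 of 33 oligodendrocyte-like cells (highest 111 TPM) and 3 of the 11 stem cell or astrocyte-like cells (highest 117 TPM). Slitrk3 was detected in 11 of 20 granule-lineage-like cells (median 3.10 TPM, highest 92.0), 9 of 33 oligodendrocyte-like cells (highest 260 TPM) and 2 of the 11 stem cell or astrocyte-like cells (highest 11.8 TPM). Slitrk1 was detected in 7, 5 and 1 cells, and Slitrk4 in 7, 3 and 4 cells, in the same order of groups. The mean of Slitrk4 in granule-lineage-like cells, 59.1 TPM, owed 61.4% to 1 cell at 725 TPM. Slitrk6 was listed at 0 throughout.

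**Figure D2:**
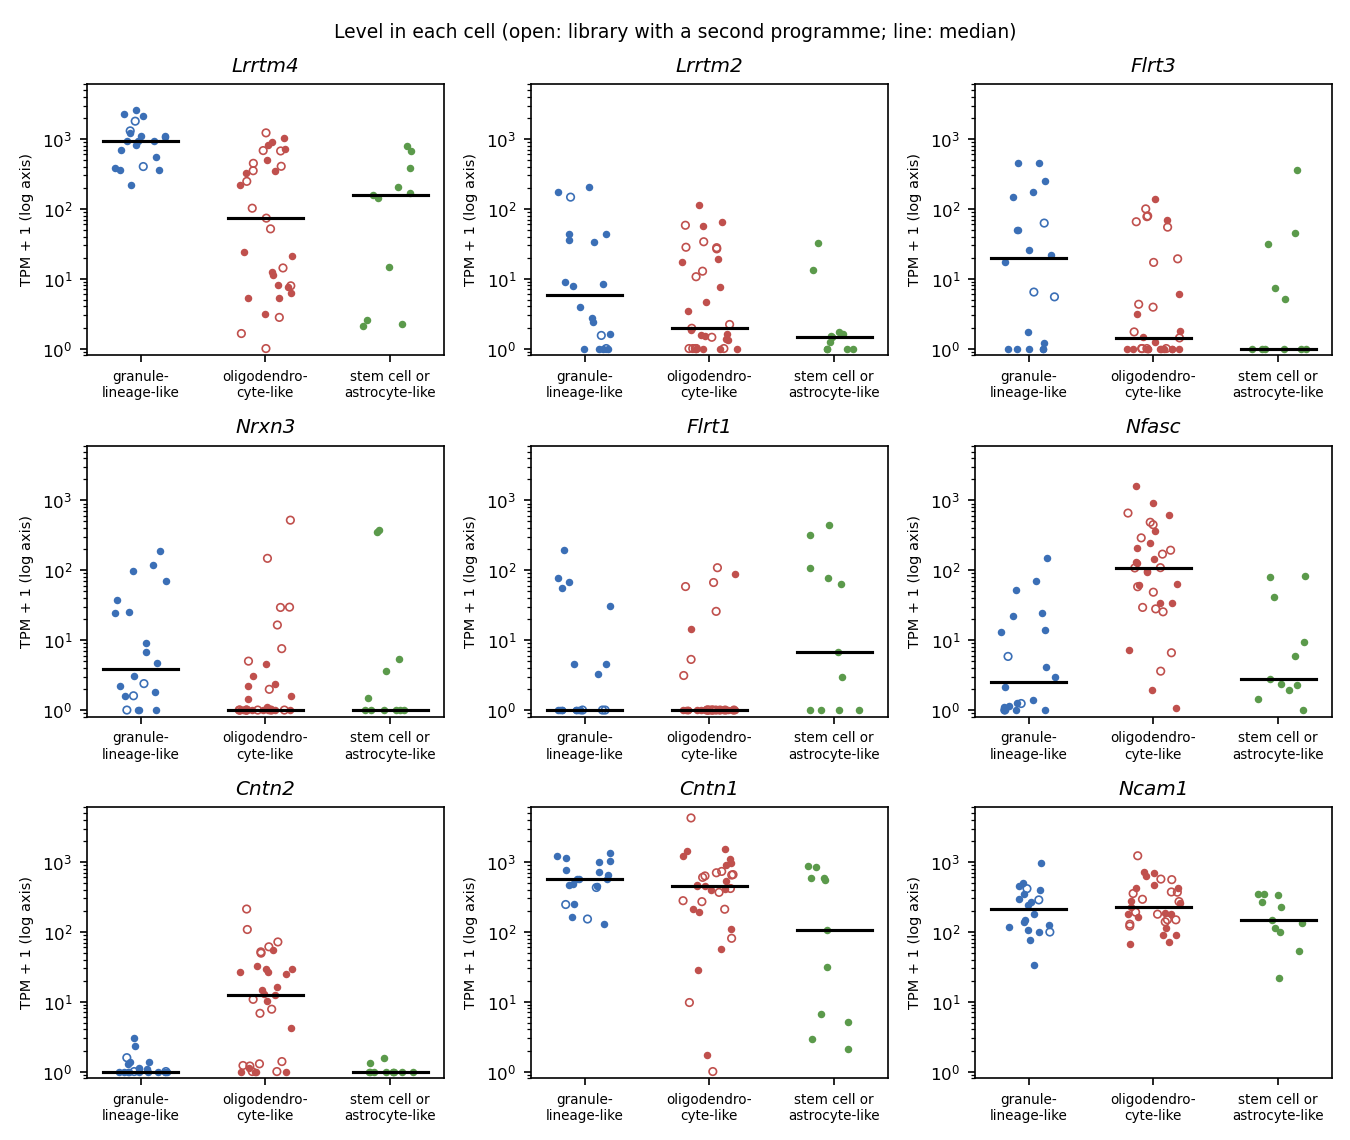
Level of 9 adhesion genes in each cell (TPM + 1, log axis), with granule-lineage-like cells on the left, oligodendrocyte-like cells in the middle and stem cell or astrocyte-like cells on the right of each panel. Open points are libraries with a second programme and lines are medians. Lrrtm4 is high in all 20 granule-lineage-like cells, Nfasc and Cntn2 are detected in most oligodendrocyte-like cells, and Flrt1 has its highest median in stem cell or astrocyte-like cells.

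Contactin 1, a partner of neurofascin at the paranode and of receptor phosphatases, was abundant in both granule-lineage-like and oligodendrocyte-like cells. Cntn1 ranged from 130 to 1352 TPM in granule-lineage-like cells (median 562), from 0 to 4251 TPM in oligodendrocyte-like cells (median 446) and from 1.08 to 870 TPM in stem cell or astrocyte-like cells (median 106). Contactin 2 (TAG-1), which lies beside the paranode on axon and glia, was detected mainly in the oligodendrocyte-like cells. Cntn2 was detected in 2 of 20 granule-lineage-like cells (highest 2.06 TPM), 22 of 33 oligodendrocyte-like cells (median 11.4 TPM, highest 211) and 0 of the 11 stem cell or astrocyte-like cells (highest 0.55 TPM). In 17 oligodendrocyte-like cells it was at 10 TPM or more, above every cell of the other groups. The log2 ratio of granule-lineage-like over oligodendrocyte-like cells was -4.40, and -3.70 without libraries with a second programme. For oligodendrocyte-like over stem cell or astrocyte-like cells it was 4.63, but 0.73 when cells were assigned by marker scores, which move 7 of the 64 cells. Cntn3, Cntn4, Cntn5 and Cntn6 were detected in 8, 7, 10 and 6 of the 64 cells, and 96.8% of the Cntn3 of the granule-lineage-like cells came from 1 cell.

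Contactin-associated proteins were scarce. Cntnap1 (Caspr), the axonal partner of contactin 1 at the paranode, was detected in 13 of 20 granule-lineage-like cells (median 4.45 TPM, highest 25.1), 15 of 33 oligodendrocyte-like cells (highest 52.3 TPM) and 3 of the 11 stem cell or astrocyte-like cells (highest 37.9 TPM). Cntnap2 (Caspr2), the partner of contactin 2, was detected in 12 of 20 granule-lineage-like cells (median 2.59 TPM, highest 60.5), 17 of 33 oligodendrocyte-like cells (median 1.12 TPM, highest 450) and 5 of the 11 stem cell or astrocyte-like cells (highest 243 TPM). A short Cntnap2 transcript with 108 codons, NM_025771, carried 84.8% of the mean Cntnap2 level in granule-lineage-like cells and 87.6% in oligodendrocyte-like cells. Among cells with at least 10 TPM of Cntnap2 it was the majority in 6 of 7 and 6 of 8. Without the cell highest in it, its shares were 79.3% and 79.7%. In deeper libraries its shares were 62.2% and 90.5%, and in shallower ones 100% and 84.1%. Without their highest cell the shares in deeper libraries were 49.4% and 67.0%. Its 74.2% in stem cell or astrocyte-like cells rests on cell 56, without which the share was 16.0%. Cntnap5b was detected in 6 of 20, 7 of 33 and 8 of 11 cells, with a highest value of 13.9 TPM among the last 11. Cntnap5a was detected in 4 cells and Cntnap4 in 1.

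Of the L1 family, Nfasc (neurofascin) was highest in the oligodendrocyte-like cells. It ranged from 0 to 151 TPM in granule-lineage-like cells (median 1.52, mean 17.7), from 0.06 to 1598 TPM in oligodendrocyte-like cells (median 107, mean 224) and from 0 to 81.6 TPM in stem cell or astrocyte-like cells (median 1.79, mean 20.1). It was at 10 TPM or more in 7 of 20, 28 of 33 and 3 of 11 cells in that order. The log2 ratio of the means was -3.59 for granule-lineage-like over oligodendrocyte-like cells and 3.41 for oligodendrocyte-like over stem cell or astrocyte-like cells. Without libraries with a second programme the 2 ratios were -3.62 and 3.64. The gene has a neuronal form with a mucin-like region, which gathers channels at the node, and a glial form with a further fibronectin domain, which lies in the paranodal loops of myelin.

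The deposited tables list 4 Nfasc transcripts, and their estimated shares of the mean differed between the groups, while the median share of the 3 shorter ones over cells with at least 10 TPM was 100% in each. NM_182716, whose GENCODE counterpart codes for 1240 codons, is the longest. Its share of the mean Nfasc level was 61.3% in granule-lineage-like cells, 1.53% in oligodendrocyte-like cells and 35.6% in stem cell or astrocyte-like cells. The 3 shorter transcripts, of which NM_001160318 codes for 1157 codons, held 38.7%, 98.5% and 64.4%. The oligodendrocyte-like figure rests on many cells: the shorter transcripts were the majority in 27 of the 28 cells with at least 10 TPM of Nfasc. The granule-lineage-like figure does not, since NM_182716 was the majority in 2 of 7 such cells and the shorter transcripts in 5. Without cell 77, which held 69.7% of the NM_182716 of these cells, its share there was 32.4%. The stem cell or astrocyte-like figure is 1 cell, number 22, and without it the share was 0%. Shown are both coding segments of NM_001160318 that share no base with NM_182716, and 1 of the 5 the other way round. Only these 2 transcripts were compared to find the segments, which tell their coding sequences apart. They lie on the minus strand of chromosome 1 (GRCm38). Capitals mark the segment and lower case the 12 coding bases on either side. The annotated counterparts of all 3 shorter transcripts hold the first and second segments, and that of NM_182716 holds the last.
Nfasc, shorter forms, 116 bases at chr1:132600099-132600214: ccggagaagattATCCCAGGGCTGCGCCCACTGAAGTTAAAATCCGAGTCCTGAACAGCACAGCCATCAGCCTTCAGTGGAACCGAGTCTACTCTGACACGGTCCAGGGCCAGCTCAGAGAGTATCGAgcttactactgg
Nfasc, shorter forms, 205 bases at chr1:132597765-132597969: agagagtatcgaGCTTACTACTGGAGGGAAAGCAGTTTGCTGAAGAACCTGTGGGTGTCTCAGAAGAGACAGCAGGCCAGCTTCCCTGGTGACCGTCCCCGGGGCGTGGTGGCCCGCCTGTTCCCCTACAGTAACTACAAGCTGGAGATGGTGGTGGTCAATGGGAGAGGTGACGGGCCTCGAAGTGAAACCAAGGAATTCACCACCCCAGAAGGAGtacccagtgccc
Nfasc, longest form, 237 bases at chr1:132588074-132588310: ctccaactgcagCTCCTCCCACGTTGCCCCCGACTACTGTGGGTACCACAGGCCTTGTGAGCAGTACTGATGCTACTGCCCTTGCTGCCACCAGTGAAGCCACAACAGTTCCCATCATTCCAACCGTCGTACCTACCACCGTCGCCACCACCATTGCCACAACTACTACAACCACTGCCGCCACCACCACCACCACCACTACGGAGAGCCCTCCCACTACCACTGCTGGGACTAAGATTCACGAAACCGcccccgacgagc

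The remaining L1-family genes leaned towards the granule-lineage-like cells. Chl1, the close homologue of L1, was detected in 17 of 20 granule-lineage-like cells (median 56.3 TPM, highest 284), 24 of 33 oligodendrocyte-like cells (median 16.3 TPM, highest 262) and 6 of the 11 stem cell or astrocyte-like cells (median 1.25 TPM, highest 287). Nrcam, which gathers sodium channels at the node together with neurofascin, ranged from 3.36 to 378 TPM in granule-lineage-like cells (median 40.5), from 0 to 188 TPM in oligodendrocyte-like cells (median 16.3) and from 0 to 88.7 TPM in stem cell or astrocyte-like cells (median 2.40). In the 8 oligodendrocyte-like cells with a second programme by pan-neuronal markers the median was 50.1 TPM of Chl1 and 30.7 TPM of Nrcam. The 7 with a stem cell or astrocyte programme had medians of 0.24 TPM of Chl1 and 18.8 TPM of Nrcam, and the 18 without a second programme had 4.24 and 4.47 TPM. L1cam was detected in 3 of 20, 2 of 33 and 2 of 11 cells, and 80.6% of its granule-lineage-like signal came from 1 cell.

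The total level of Ncam1 lay within 4-fold between the groups, and the estimated shares of its transcript forms lay further apart. Its level was 32.7 to 972 TPM in granule-lineage-like cells (median 209), 65.9 to 1223 TPM in oligodendrocyte-like cells (median 228) and 21.1 to 345 TPM in stem cell or astrocyte-like cells (median 145). The short form NM_010875 codes for 725 codons and ends in a segment of 74 bases that the other forms lack. NCAM proteins of this size are known to be held by a lipid anchor and to prevail in glia, while the longer ones cross the membrane. The short form made up 17.9% of the mean Ncam1 level in granule-lineage-like cells, 58.8% in oligodendrocyte-like cells and 39.7% in stem cell or astrocyte-like cells. Cell by cell its share was 0% to 60.6% in granule-lineage-like cells (median 5.48%), 0% to 94.1% in oligodendrocyte-like cells (median 47.0%) and 0% to 95.7% in stem cell or astrocyte-like cells (median 52.3%). It was the majority form in 1 of 20, 15 of 33 and 6 of 11 cells. Without libraries with a second programme the share of the mean was 19.9% in granule-lineage-like cells and 54.5% in oligodendrocyte-like cells. One deeper library, cell 11, held 62.4% of the short form of the granule-lineage-like cells, and without it their share of the mean was 8.28%.

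Ncam2, a relative of Ncam1 best known from olfactory axons, also has a short and a long form, of 727 and 837 codons. It was detected in 13 of 20 granule-lineage-like cells (median 38.8 TPM, highest 195), 21 of 33 oligodendrocyte-like cells (median 15.6 TPM, highest 311) and 5 of the 11 stem cell or astrocyte-like cells (highest 62.2 TPM). The short form held 14.2% of the mean level in granule-lineage-like cells, 53.6% in oligodendrocyte-like cells and 60.2% in stem cell or astrocyte-like cells. Among cells with at least 10 TPM of Ncam2 it was the majority in 1 of 12 granule-lineage-like cells, 9 of 17 oligodendrocyte-like cells and 1 of the 2 stem cell or astrocyte-like cells. In deeper libraries the shares of the mean were 24.5% in granule-lineage-like and 70.6% in oligodendrocyte-like cells, and in shallower ones 1.46% and 47.8%. Without libraries with a second programme they were 15.0% and 65.0%. Single cells weigh on these values: without the cell highest in the short form the shares over all libraries were 8.28% in granule-lineage-like cells, 39.9% in oligodendrocyte-like cells and 12.4% in stem cell or astrocyte-like cells. The last coding segments of the Ncam1 and Ncam2 short forms are printed because they are absent from the long forms, with the stop codon left off. Capitals mark the segment and lower case the 12 bases before it.
Ncam1, short form, 74 bases at chr9:49517509-49517582, minus strand (GRCm38): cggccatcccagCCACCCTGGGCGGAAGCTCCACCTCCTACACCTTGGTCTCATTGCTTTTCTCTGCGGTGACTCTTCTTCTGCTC
Ncam2, short form, 104 bases at chr16:81595207-81595310, plus strand (GRCm38): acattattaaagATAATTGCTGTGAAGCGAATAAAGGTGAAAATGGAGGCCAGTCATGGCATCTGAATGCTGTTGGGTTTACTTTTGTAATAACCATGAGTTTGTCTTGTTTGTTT

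**Figure D3:**
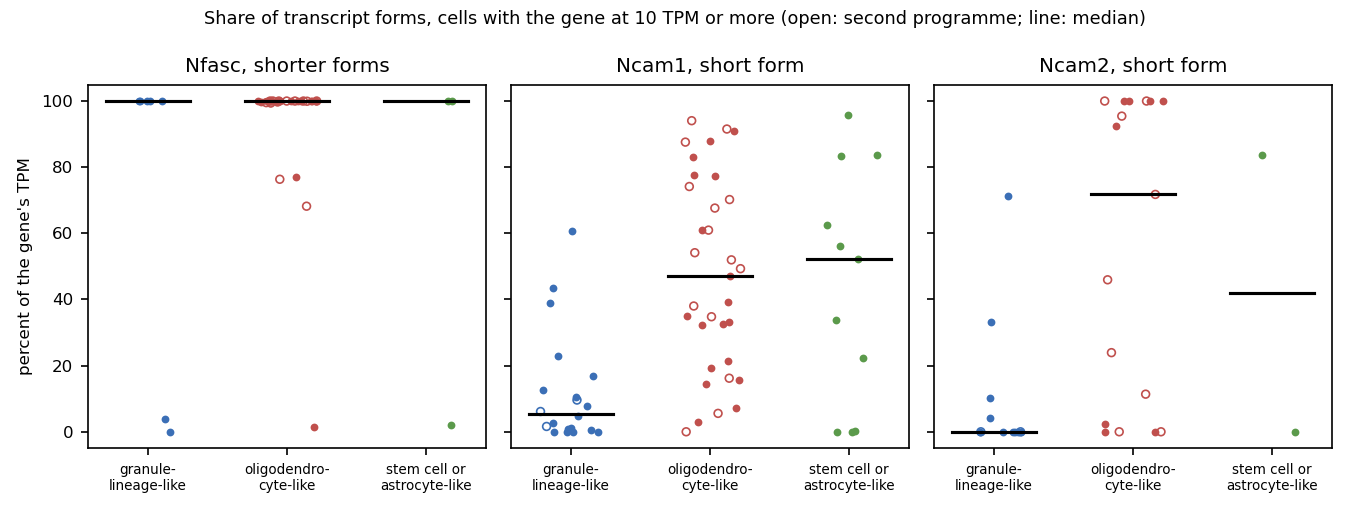
Share of the shorter Nfasc forms and of the short Ncam1 and Ncam2 forms in each cell with at least 10 TPM of the gene (percent of the gene's TPM), with granule-lineage-like cells on the left, oligodendrocyte-like cells in the middle and stem cell or astrocyte-like cells on the right of each panel. Open points are libraries with a second programme and lines are medians. The short Ncam1 form is over 50% in 1 granule-lineage-like cell and in 15 oligodendrocyte-like cells.

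RSEM divides reads among the transcripts of a gene, so these shares are estimates. NM_178721 of Cadm2 held 43.5% of the mean in granule-lineage-like cells and 9.05% in oligodendrocyte-like cells, and was the majority in 8 of 19 and 2 of 22 cells with at least 10 TPM. NM_176930 of Nrcam held 51.7% of the mean in granule-lineage-like cells and 18.6% in oligodendrocyte-like cells, but was the majority in 3 of 17 and 2 of 19 cells with at least 10 TPM. Single cells weigh on both granule-lineage-like shares. The highest cell had 351 TPM of NM_178721 (mean 47.8) and 366 TPM of NM_176930 (mean 36.5).

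CADMs, immunoglobulin proteins that join axons, synapses and glia, were led by Cadm1 and Cadm2. Cadm1 ranged from 16.0 to 251 TPM in granule-lineage-like cells (median 76.7), from 0 to 324 TPM in oligodendrocyte-like cells (median 46.4) and from 16.4 to 305 TPM in stem cell or astrocyte-like cells (median 64.3). Cadm2 ranged from 7.68 to 351 TPM in granule-lineage-like cells (median 126), from 0.24 to 155 TPM in oligodendrocyte-like cells (median 27.5) and from 5.47 to 317 TPM in stem cell or astrocyte-like cells (median 60.1). Both genes overlap widely between groups. Cadm3, a neuronal CADM of axons, was detected in 11 of 20, 12 of 33 and 3 of 11 cells, with a median of 5.51 TPM in granule-lineage-like cells. Cadm4, the glial partner of Cadm3 in myelinating cells, was detected in 2 of 20, 11 of 33 and 0 of 11 cells. Its mean in granule-lineage-like cells, 10.3 TPM, rests on 1 cell that held 98.2% of the sum.

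Set side by side over all members, the granule-lineage-like cells had the higher mean for most of the adhesion genes. A gene counts as past 4-fold when the log2 ratio of mean TPM + 1 is at least 2 in size and a mean of 1 TPM is reached in either group. For granule-lineage-like over oligodendrocyte-like cells the mean was higher for 32 of the 38 members tested, where it was for 54.2% of all genes, and the median log2 ratio was 0.72 over the members and 0.13 over all genes. Past 4-fold higher were 5 members, Flrt2, Flrt3, Lrrtm1, Slitrk1 and Slitrk4, where 8.32% of all genes tested were. Cell 2 held 64.8% of the Slitrk1 of the granule-lineage-like cells, and the log2 ratio of Slitrk1, 2.19, was 1.55 without the highest cell of each group and 0.11 in shallower libraries. Past 4-fold lower were 2, Cntn2 and Nfasc, where 11.8% of all genes were. Neither count is far from its background. For granule-lineage-like over stem cell or astrocyte-like cells the median log2 ratio was 1.00 over 37 members and 0.30 over all genes. There 12 members were past 4-fold higher (21.6% of all genes): Cadm3, Cadm4, Cntn3, Flrt2, L1cam, Lrrtm2, Lrrtm4, Ncam2, Nlgn3, Slitrk1, Slitrk3 and Slitrk4. Flrt1 alone was past 4-fold lower (13.7% of all genes). For oligodendrocyte-like over stem cell or astrocyte-like cells the median was 0.04 over 37 members and 0.24 over all genes. There 6 were past 4-fold higher (21.3% of all genes), Cadm4, Cntn2, Cntn3, Ncam2, Nfasc and Slitrk3, and Flrt1 was past 4-fold lower (11.7% of all genes). The log2 ratio of Slitrk3 in this comparison, 2.64, was 0.06 without libraries with a second programme and 0.59 by marker scores, and cell 70 held 59.9% of the Slitrk3 of the oligodendrocyte-like cells. In all, 17 members were past 4-fold in some comparison and 25 in none, among them Ncam1 and Cntn1. The share of all genes past 4-fold in some comparison was not worked out. The 3 comparisons share their groups and are not independent of each other.

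Leaving out libraries with a second programme raised the number of members past 4-fold higher in granule-lineage-like than in oligodendrocyte-like cells. The share of all genes past 4-fold higher rose too. Without these 18 libraries, 12 members were past 4-fold higher in granule-lineage-like cells instead of 5. Of all genes tested 16.5% were, instead of 8.32%. The median log2 ratio was 1.17 over the members and 0.34 over all genes. Cntn2 and Nfasc were again the members past 4-fold lower (12.5% of all genes). Those added were Chl1, Cntn3, Cntnap5b, Flrt1, L1cam, Nrxn3, Slitrk3 and Slitrk5, and Lrrtm1 was no longer among them. Nrxn3 shows the size of this: its log2 ratio was 0.31 over all libraries and 4.52 without the 18. In oligodendrocyte-like cells Nrxn3 averaged 50.1 TPM in the 15 libraries with a second programme and 0.522 TPM in the 18 others. The 8 with a pan-neuronal programme averaged 93.1 TPM (median 21.9), and 32.1 TPM without their highest cell. The 7 with a stem cell or astrocyte programme averaged 0.937 TPM (median 0). Cell 53, at 520 TPM, was the highest of the 15, whose mean was 16.5 TPM without it and whose median was 0.98 TPM. Oligodendrocyte-like libraries with a second programme had a median of 21 members detected against 16 in the others. Summed pan-neuronal markers had medians of 3295 and 779 TPM. This difference in markers follows in part from the rule, since these markers set apart 8 of the 15 libraries. Single cells weighed on the averages too. With the highest cell of each gene and group left out, 22 of the 27 calls in the 3 comparisons were kept, and with ratios of medians 14 of 27.

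**Figure D4:**
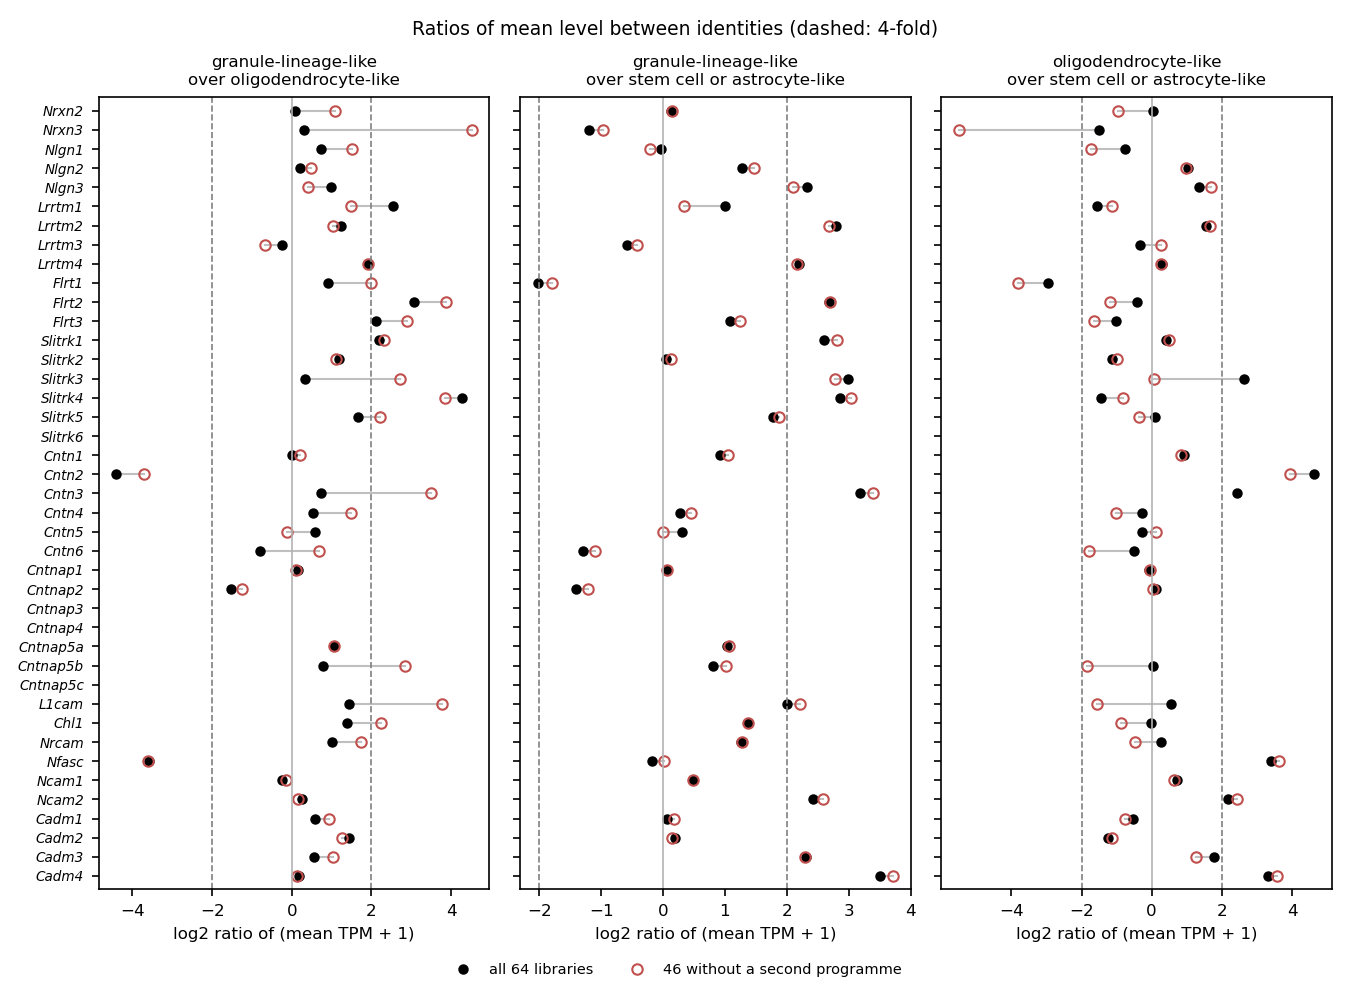
Log2 ratio of (mean TPM + 1) for 41 members in the 3 comparisons, with all 64 libraries (filled) and with the 46 libraries without a second programme (open). Dashed lines mark 4-fold, genes without a point did not reach a mean of 1 TPM, and positive values mean a higher mean in the group named first. Cntn2 and Nfasc lie far to the left in the first panel with either set of libraries, while Nrxn3 moves from near 0 to over 4.

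Within the 33 oligodendrocyte-like cells the members went in different directions along the myelin programme. Nfasc was higher where the summed level of 11 oligodendrocyte markers was higher, with Spearman's rho of 0.76 and Pearson's r of 0.74 on the log2 scale over 33 cells. Cntn1 did so less closely (rho 0.58, r 0.44). Cntn2 did not follow the markers (rho 0.06, r 0.06). Lrrtm4 was higher where these markers were lower (rho -0.60, r -0.59) and where 12 pan-neuronal markers were higher (rho 0.66, r 0.60). Chl1 (rho 0.67, r 0.66) and Nrcam (rho 0.60, r 0.61) were also higher where the pan-neuronal markers were higher. These 2 genes were also higher where more genes were detected, with rho of 0.59 and 0.62. The cells share 1 sample, and TPM makes each gene's level depend on all others in the cell, so these are descriptions without a test. Among 27 combinations of known binding partners and groups with enough detected cells, 1 had a correlation of at least 0.5 in size by both measures: Nfasc with Cntn1 in oligodendrocyte-like cells (rho 0.60, r 0.51, n = 33).

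**Figure D5:**
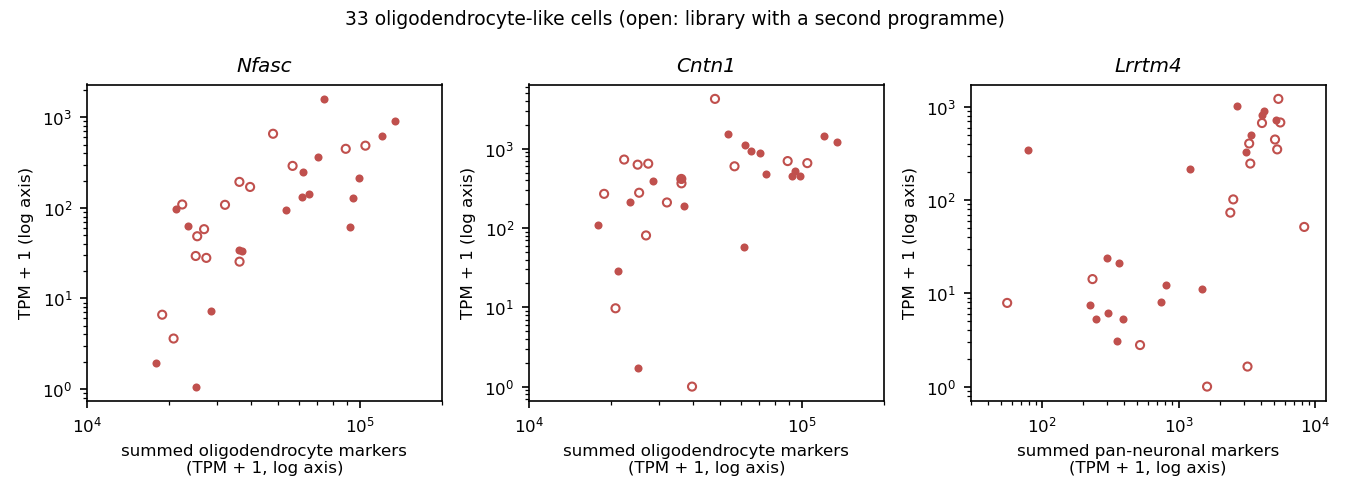
Nfasc and Cntn1 against the summed level of 11 oligodendrocyte markers, and Lrrtm4 against that of 12 pan-neuronal markers, in the 33 oligodendrocyte-like cells (TPM + 1, log axes). Open points are libraries with a second programme. Nfasc is higher where the oligodendrocyte markers are higher (rho 0.76), and Lrrtm4 where the pan-neuronal markers are higher (rho 0.66).

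Other genes of the same pathways, from 4 lists of 82 genes, were read the same way. Unlike the members, they were not kept out of the clustering, so their counts can be set in part by the grouping. C1ql2, on the list of ligands and receptors, is also a granule-lineage marker used in naming the groups. Of the trans-synaptic ligands and receptors tested for granule-lineage-like over oligodendrocyte-like cells, 3 of 24 were past 4-fold higher (Clstn1, Nxph1 and Nxph4), where 8.32% of all genes were, and 1 was lower, where 11.8% were. The lower one, Ptprd, a receptor phosphatase that binds SLITRKs, was detected in 9 of 20 granule-lineage-like cells (median 0.21 TPM), 30 of 33 oligodendrocyte-like cells (median 47.9 TPM) and 2 of the 11 stem cell or astrocyte-like cells (median 0 TPM). Among the intracellular scaffolds, 4 of 27 were past 4-fold higher, namely Dlg3, Lin7a, Lin7b and Mpp6, and 2 were lower, against the same 8.32% and 11.8%. Lin7b, an adaptor that links membrane proteins to CASK, was detected in 15 of 20 granule-lineage-like cells (median 191 TPM) and 13 of 33 oligodendrocyte-like cells (median 0 TPM). The lower 2 were protein 4.1 genes. Epb4.1l3 (protein 4.1B), which anchors contactin-associated proteins beside the node, had medians of 0.18 TPM in granule-lineage-like cells, 171 TPM in oligodendrocyte-like cells and 0 TPM in stem cell or astrocyte-like cells.

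The enzymes that put polysialic acid on NCAM1 were rare. St8sia2, the main one in newborn neurons, was detected in 2 of 20 granule-lineage-like cells (highest 11.8 TPM), 6 of 33 oligodendrocyte-like cells (highest 499 TPM) and 4 of the 11 stem cell or astrocyte-like cells (highest 116 TPM). St8sia4, which persists in the adult brain, was detected in 7 of 20 granule-lineage-like cells (highest 201 TPM), 1 of 33 oligodendrocyte-like cells (54.0 TPM) and 1 of the 11 stem cell or astrocyte-like cells (229 TPM). Among adhesion genes of axon and myelin, 2 of 15 were past 4-fold higher in granule-lineage-like than in oligodendrocyte-like cells (Dscam and Opcml) and 3 were lower, where 8.32% and 11.8% of all genes were. Mag and Mog, 2 of these 3, are markers that named the groups and so are no finding. The third, Mcam, was detected in 1 of 20 granule-lineage-like cells, 26 of 33 oligodendrocyte-like cells (median 111 TPM) and 1 of the 11 stem cell or astrocyte-like cells. Ntm, a neurotrimin of the IgLON family, was past 4-fold lower in granule-lineage-like than in stem cell or astrocyte-like cells, with medians of 0.19 TPM in granule-lineage-like cells and 30.3 TPM in stem cell or astrocyte-like cells.

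Against the stem cell or astrocyte-like cells, the ligands and receptors past 4-fold numbered 5 higher and 1 lower of 24 for granule-lineage-like cells, where 21.6% and 13.7% of all genes were. For oligodendrocyte-like cells they numbered 6 higher and 3 lower of 25, where 21.3% and 11.7% of all genes were. Gpc4, a glypican that binds LRRTM4, was detected in 12 of 20 granule-lineage-like cells (median 5.83 TPM), 11 of 33 oligodendrocyte-like cells (median 0 TPM) and 2 of the 11 stem cell or astrocyte-like cells (median 0 TPM). Of the scaffolds, 5 of 26 were past 4-fold higher and 0 lower for granule-lineage-like cells, and 4 higher and 1 lower of 26 for oligodendrocyte-like cells, against the same percentages. Mpp2 was detected in 13 of 20 granule-lineage-like cells (median 8.93 TPM), 24 of 33 oligodendrocyte-like cells (median 11.0 TPM) and 3 of the 11 stem cell or astrocyte-like cells (highest 4.48 TPM).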

How the data were processed

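Poly(A) RNA of 64 single cells was measured, and the authors deposited 1 table per cell with 30970 RefSeq transcripts. RSEM, Bowtie2 and mm9 are named, without versions or roles, per the submitters' processing notes. The column header names RSEM's estimated read number, but the total is nearly the same in every deposited column, as for TPM, so the values were taken as TPM; no count test was run. Transcripts without a symbol (1037) were left out, the rest summed per symbol, and 48 symbols altered to numbers were restored from RefSeq.

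Identities came from Ward clustering of log2(TPM + 1) on 10 principal components of the 1000 most variable genes found in at least 10% of cells, the members left out, with 3 clusters by silhouette (scikit-learn 1.9.0). The mean silhouette was 0.262 for 3 clusters and 0.248 to 0.252 for 2, 4, 5 and 6, so 3 was preferred by a small margin. The same cells define and show the groups, so the contrasts are descriptions. No doublet caller was run. A gene was compared when its mean reached 1 TPM in either group, with a pseudocount of 1 TPM, and called at 4-fold. Depth was estimated from the value of 1 read, and counting limits cover counting error only.

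Members detected in at least 50% of the cells of a group, or past 4-fold, are described with their ranges. Partner genes past 4-fold are named up to 4 per list and contrast by size, with St8sia2 and St8sia4 always. For some counts of 5 or fewer, but not all, the genes are named beyond that rule, having been chosen after their values were seen. The members, lists and rules were chosen with earlier results of these data known. Transcripts were matched by accession to GENCODE M21 (GRCm38) for codons, positions and sequences, 67 of 67, of which 63 one to one. A member and a marker gene are counted in the totals but not reported here by themselves. Alternatives changed identity, libraries, averages, pseudocount, filter, fold and detection level. The script was tested on simulated data.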

Additional observations from a re-analysis of the deposited data

How the results depend on the processing

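Counts of members past 4-fold moved under several alternatives. Among these, the share of all genes was worked out only without libraries with a second programme. There 16.5% were higher and 12.5% lower for granule-lineage-like over oligodendrocyte-like cells. Over stem cell or astrocyte-like cells it was 21.4% and 14.8% for granule-lineage-like and 19.3% and 17.5% for oligodendrocyte-like cells. The other counts have no background and are no result about the members. For granule-lineage-like over oligodendrocyte-like cells, the 5 higher members became 12 without libraries with a second programme, 8 by marker scores, 13 in deeper libraries, 11 by medians, 2 with a pseudocount of 10 TPM and 14 at 2-fold, and the 2 lower became 4 in shallower libraries and 1 with that pseudocount. For granule-lineage-like over stem cell or astrocyte-like cells, the 12 higher became 6 by marker scores, 7 in shallower libraries, 6 by mean log2 values and 1 with that pseudocount. The 1 lower became 2 with 500 genes and in shallower libraries, 4 at 2-fold, and 0 without a second programme, by mean log2 values and with that pseudocount. For oligodendrocyte-like over stem cell or astrocyte-like cells, the 6 higher became 2 by marker scores, 3 by mean log2 values, 1 with that pseudocount and 10 at 2-fold. The 1 lower became 2 by marker scores, without a second programme, by mean log2 values and without the highest cell (chosen after seeing the data), 3 by medians and 8 at 2-fold. By marker scores, partner genes past 4-fold higher numbered 6 and 9 in these last 2 comparisons. At 10 TPM the median members detected per cell were 16.5, 11 and 12 in the 3 groups, and 14 members reached 50% of granule-lineage-like cells and 7 reached 50% of stem cell or astrocyte-like cells. Above 0 the first median was 25. Cntn3 changed sign for oligodendrocyte-like over stem cell or astrocyte-like cells (-0.11 without a second programme), as did L1cam for granule-lineage-like over stem cell or astrocyte-like cells (-0.26 in shallower libraries). The cause was not tested. Transcript shares without the cell highest in a transcript were also chosen after seeing the data. Of 27 calls, 5 held under every alternative run for single genes: Cntn2 and Nfasc (granule-lineage-like over oligodendrocyte-like), Lrrtm2 (granule-lineage-like over stem cell or astrocyte-like), and Flrt1 and Nfasc (oligodendrocyte-like over stem cell or astrocyte-like). Deeper libraries held 1 stem cell or astrocyte-like cell, so its comparisons were not run there. No paired analysis was possible because the labels give 1 group and no replicate numbers.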

Other observations

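Some libraries held the highest value of their group for several members. In the stem cell or astrocyte-like group, cell 56 held the highest value for 8 of 35 detected members and cell 81 for 7. Cell 56 was the shallowest library, with an estimated 442539 reads. In the oligodendrocyte-like group, cell 53, a library with a second programme, held the highest value for 6 of 39 members, and in the granule-lineage-like group cell 65 did so for 5 of 38. The part of depth and of the second programme in these values was not tested.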
